A study of Mus musculus with 28 samples.

Results

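The genes of the Rag GTPases, with a small set of partners in nutrient sensing by mTORC1, were followed in the frontal cortex of aged mice. The set was the 10 genes Rragd, Rraga, Rragb, Rragc, Mtor, Rptor, Tfeb, Flcn, Tsc1 and Tsc2, taken by name from the 25900 genes of the count table. Rragd was chosen because earlier results of these data showed it lower in mutant cortex, so its levels against wild type are a description, with no test. The other 9 were added by role, also with results known, and all 10 passed the filter on low counts. PolyA RNA was sequenced in 28 libraries from mice of the C57BL/6 background aged 20 months. The mice carried a knock-in of Q331K, an amyotrophic lateral sclerosis substitution, in Tardbp, which encodes TDP-43, a protein that binds RNA. Wild-type mice (WT) had no mutant allele and gave 8 libraries, heterozygous mice (HET) had 1 mutant allele and gave 10, and homozygous mice (HOM) had 2 and gave 10. Sex, litter and batch are not in the labels. Nothing says that the libraries of a group are separate animals, and p-values therefore reflect the spread between these samples, which may be technical.

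Rag GTPases work on the surface of the lysosome as pairs, RagA or RagB with RagC or RagD. When amino acids are plentiful the pair binds Raptor and brings the mTORC1 kinase to the lysosome, where the GTPase Rheb, held in check by the TSC complex, switches it on. RagC and RagD, once acted on by folliculin, also bring the transcription factor TFEB to mTORC1, whose phosphorylation keeps TFEB out of the nucleus. TFEB and its relatives drive lysosomal genes through E-box sequences, and Rragd is known as one of their targets. In neurons this route links food supply and lysosomal content to protein synthesis.

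Library totals, in units of 1000000 counts, were 46.55 to 64.08 in WT, 45.05 to 74.91 in HET and 30.46 to 62.62 in HOM. Levels are given as CPM, the reads of a gene per 1000000 reads of the library after TMM scaling. Tardbp itself averaged 321 CPM in WT (SD 13.6, n = 8), 328 CPM in HET (SD 13.3, n = 10) and 349 CPM in HOM (SD 18.9, n = 10). Its log2 fold change against WT was 0.12 in HOM (SE 0.0316, edgeR adjusted p = 0.0185) and 0.03 in HET (adjusted p = 0.734). In HOM against WT 7.61% of all genes were called. Exons of Tardbp share 1817 of 7796 bases with Masp2 on the other strand. The counts do not separate the alleles and so do not check the genotypes. Neuronal markers were high in every library, with 7 pan-neuronal genes summing to 6980 CPM or more, and 8 excitatory markers of frontal cortex to 5138 CPM or more. WT 6 and HOM 3 stood at the ends of the first principal component of all genes.

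Rragd, which encodes RagD, had a lower transcript level in both mutant groups than in wild type. The gene (ENSMUSG00000028278) lies on the plus strand of chromosome 4 at 32983037 to 33022180 in GRCm38. The WT libraries had a lowest value of 161, a median of 169 and a highest of 177 CPM. The HET libraries had a lowest value of 137, a median of 147 and a highest of 160 CPM. The HOM libraries had a lowest value of 126, a median of 142 and a highest of 156 CPM. All 10 HET and all 10 HOM libraries lay below every WT library, while the HET and HOM libraries overlapped. Of the 16110 genes tested, 0.223% had every HOM library below every WT library and 0.031% had every HET library below every WT library. Because Rragd was picked from these contrasts, nothing is read from those shares.

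Mean Rragd was 169 ± 5.84 CPM (SD) over the 8 WT libraries, 149 ± 7.17 over the 10 HET libraries and 142 ± 8.49 over the 10 HOM libraries. The log2 fold change was -0.24 in HOM against WT (SE 0.0336, 95% confidence interval -0.311 to -0.174), a fold of 0.845. In HET against WT it was -0.18 (SE 0.0335, interval -0.248 to -0.111), a fold of 0.883. Each library held 4093 to 11793 reads of the gene, and leaving out any 1 library kept the HOM difference between -0.26 and -0.23. In these bulk libraries, fewer cells of a type and less RNA per cell cannot be told apart.

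**Figure D1:**
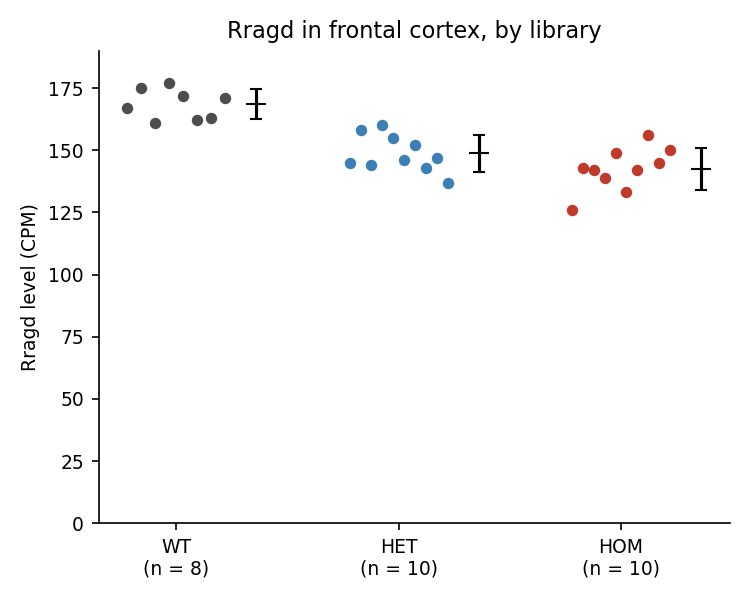
Rragd level (vertical axis, CPM, from 0) in each library (points) by genotype (horizontal axis), with the mean and SD of each group (cross and bar). WT libraries sit between 161 and 177, HET between 137 and 160 and HOM between 126 and 156, so neither mutant group overlaps WT.

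The step from 1 mutant allele to 2 was smaller for Rragd than the step from none to 1 in these libraries, and whether its course is straight was not tested. HOM against HET gave a log2 difference of -0.06 (SE 0.0317, interval -0.127 to 0.00223, edgeR adjusted p = 0.601), and 8 of 10 HOM libraries lay below the HET mean. The second step minus the first was 0.12 (SE 0.0561, interval 0.00268 to 0.232), given as a description with no test. These 2 measures share libraries with the contrasts that chose the gene. Choosing a gene with a low HET level pushes the second measure up and a low HOM level pushes it down, so nothing is read from its size. In the departure test 0 genes passed by edgeR, 0.0% of those tested, while 456 had an unadjusted p under 0.05, and DESeq2 and limma voom also called 0.

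The promoter sequences of the Rag genes were read from RefSeq (GRCm38.p6), since TFEB binds E-boxes and Rragd is one of its known targets. All 10 genes matched, with 12 windows of 250 bases before to 50 after a transcript start. The E-box core CACGTG, searched on both strands, was in windows of 2 of the 10 genes, Rragb and Rragc, and in 7.15% of all 32851 windows. The longer core TCACGTGA, which holds CACGTG within it, was in 0 of the 12 windows and in 0.974% of all. In the stretches around E-boxes of Rragc and Rragb shown here, capitals mark CACGTG, and the Rragd stretch is the 250 bases before its RefSeq start, where these letters do not occur.
Rragc, chr4:123917294-123917353, plus strand, 112 bases before the start: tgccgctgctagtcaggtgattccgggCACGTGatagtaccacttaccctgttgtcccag
Rragb, chrX:153139804-153139863, plus strand, 127 bases before the start: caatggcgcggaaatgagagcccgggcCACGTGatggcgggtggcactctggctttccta
Rragb, chrX:153139895-153139954, plus strand, 36 bases before the start: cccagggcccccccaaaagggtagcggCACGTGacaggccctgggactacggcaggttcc
Rragd, chr4:32982748-32982997, plus strand: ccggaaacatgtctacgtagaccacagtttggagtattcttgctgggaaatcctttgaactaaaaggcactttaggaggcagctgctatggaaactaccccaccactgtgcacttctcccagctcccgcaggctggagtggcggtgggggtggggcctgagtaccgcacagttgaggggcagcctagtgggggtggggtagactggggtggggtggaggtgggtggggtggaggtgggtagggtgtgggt
Rragb held CACGTG once more, 3 bases before the start, in a stretch not shown. A match is a string of letters and not a measured binding site, and its absence covers this window alone. Rragb and Rragc hold the core in these windows and Rragd does not, and no link between the core and transcript levels was tested.

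The other 3 Rag genes were also lower in HOM than in WT, by smaller amounts. With Tsc1 they were the 4 genes, among the 9 other than Rragd, to pass an adjusted p of 0.05 in edgeR's quasi-likelihood test. All 4 were lower, where 7.61% of all genes were called in either direction and 3.71% called lower. Rragd, chosen from this contrast, is not counted. The median log2 fold change of the 10 was -0.05, beside 0.01 over all genes. The set was picked with this contrast in view, so the count describes the set and supports nothing more.

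Rraga, which encodes RagA and has a single exon (ENSMUSG00000070934, chromosome 4, 86575673 to 86577281, plus strand), had a lowest, median and highest of 76.5, 81.1 and 84.4 CPM in WT. In HET these were 74.2, 76.9 and 81.6 CPM, and in HOM 67.7, 73.1 and 84.6 CPM. Of the HOM libraries, 9 lay below every WT library and HOM 2 lay above all of them. Mean Rraga fell from 80.5 ± 2.49 CPM (SD, n = 8) to 73.2 ± 5.01 (n = 10). The log2 difference was -0.14 (SE 0.0321), with an adjusted p of 0.00956 by edgeR, and without HOM 2 it was -0.16.

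Rragb, which encodes RagB (ENSMUSG00000041658, chromosome X, 153139981 to 153171943, plus strand), had a lowest, median and highest of 62.6, 64.3 and 69.1 CPM in WT. The same values were 56.3, 61.6 and 66.9 CPM in HET and 50.7, 59.8 and 64.6 CPM in HOM. All 10 HOM libraries lay below the WT mean, and 6 lay below every WT library. Rragb fell in HOM by 0.14 on the log2 scale (SE 0.0397, edgeR adjusted p = 0.0338). The call was lost without any 1 of HOM 1, 6, 9 or 10 or WT 1, 2 or 6, with changes of -0.13 to -0.12 and adjusted p from 0.0511 to 0.0759, and with HET left out of the fit (adjusted p = 0.0573) or without HOM 1 and HOM 2, the shallowest libraries (0.0598).

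Rragc, which encodes RagC (ENSMUSG00000028646, chromosome 4, 123917446 to 123936997, plus strand), had a lowest, median and highest of 75.0, 78.5 and 83.9 CPM in WT. In HET they were 70.0, 76.6 and 80.1 CPM, and in HOM 68.6, 74.1 and 79.2 CPM. The groups overlapped, with 7 HOM libraries below every WT library and 9 below the WT mean. Rragc fell in HOM by 0.09 on the log2 scale (SE 0.0292, edgeR adjusted p = 0.0465), close to the threshold. The call was lost without any 1 of 14 libraries, namely HET 6, 8 or 9, HOM 1, 3, 4, 6, 9 or 10 and WT 2, 3, 6, 7 or 8, with changes of -0.10 to -0.08 and adjusted p from 0.0506 to 0.114, and with no count filter (0.055) or with HET left out of the fit (0.0694). Exons of Rragc share 264 of 3341 bases with 4930535I16Rik on the other strand, and without a stated strand setting reads of the 2 cannot be told apart.

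In HET against WT none of the 3 passed, with log2 fold changes of -0.06 for Rraga, -0.07 for Rragb and -0.05 for Rragc (edgeR adjusted p = 0.536, 0.54 and 0.556). By edgeR 0.0% of all genes were called there, 0 of 16110, while 1547 had an unadjusted p under 0.05, DESeq2 called 12 and limma voom 14. In HOM against HET the values were -0.08, -0.06 and -0.04, also not past the threshold (adjusted p = 0.461, 0.676 and 0.72), where 0.0372% of all genes were called. Fitted as a slope per mutant allele, Rraga fell by 0.07, Rragb by 0.07, Rragc by 0.05 and Tsc1 by 0.04 on the log2 scale (edgeR adjusted p = 0.00758, 0.0296, 0.0422 and 0.0246), and 7.78% of all genes passed that test. The comparisons share libraries, so these values are not independent of each other.

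**Figure D2:**
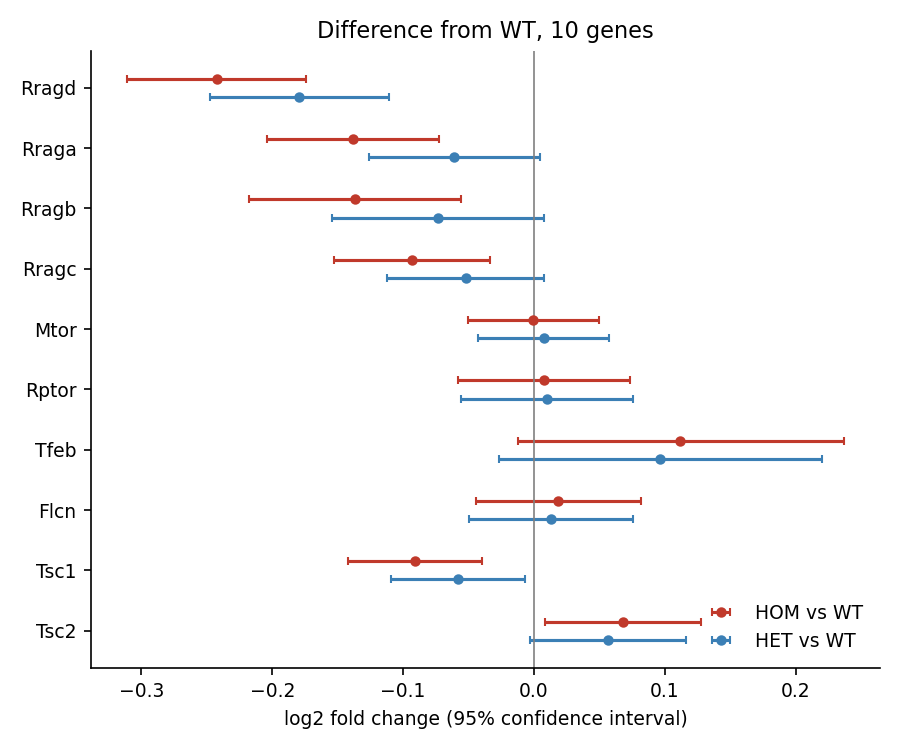
Log2 fold change (horizontal axis) of the 10 genes (vertical axis) in HOM and in HET against WT, as points with 95% confidence intervals. Rragd has the lowest point in both comparisons at -0.24 and -0.18, and Mtor, Rptor and Flcn lie close to 0.

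Per base of exon, Rag transcripts were the most abundant of the 10 genes. In WT, RPKM over all annotated exon bases was 49.8 ± 1.54 for Rraga, 32.6 ± 1.13 for Rragd, 28.8 ± 1.01 for Rragb and 23.7 ± 1.01 for Rragc (SD, n = 8), and no 2 neighbours in that order overlapped. Flcn, Mtor, Tsc2 and Tsc1 followed between 12.5 and 10.5 RPKM, each overlapping the next, then Rptor at 5.94 and Tfeb at 0.951. In HOM, Rragd at 27.5 ± 1.64 RPKM (n = 10) overlapped Rragb at 26.2 ± 2.06, which overlapped Rragc at 22.2 ± 0.918. With the longest transcript as the length instead, Rragb and Rragc overlapped in WT as well.

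Within each pair of Rag genes, the genotypes overlapped in the share that either gene took. On the RPKM scale, Rragd made up 57.9 ± 1.54% of the sum of Rragc and Rragd in WT (range 55.6 to 60.0%, n = 8), 55.7 ± 0.739% in HET (54.5 to 57.1%, n = 10) and 55.3 ± 1.54% in HOM (53.2 to 58.6%, n = 10). Rraga made up 63.3 ± 0.529% of the sum of Rraga and Rragb in WT, 63.5 ± 1.03% in HET and 63.3 ± 1.52% in HOM. All 4 genes summed to 135 ± 3.14 RPKM in WT, 127 ± 3.95 in HET and 121 ± 6.05 in HOM, with HOM libraries from 114 to 131 and WT libraries from 131 to 142.

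Mtor, the kinase, and Rptor, its Raptor subunit that binds the Rags, stayed near 0 difference. Mtor (ENSMUSG00000028991, chromosome 4, 148448611 to 148557683) lies 54.7 kb from the edited Tardbp. It had a median of 120 CPM in WT (113 to 123), 120 in HET (113 to 125) and 119 in HOM (113 to 126), so the groups overlapped throughout. The HOM against WT interval of Mtor was -0.0505 to 0.0497 on the log2 scale (edgeR adjusted p = 0.996). Rptor had a median of 78.7 CPM in WT (77.7 to 84.4), 79.0 in HET (77.1 to 85.9) and 78.6 in HOM (76.8 to 91.3), a log2 fold change of 0.01 (SE 0.0323, adjusted p = 0.915).

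Of the TSC complex that restrains Rheb, Tsc1 was lower and Tsc2 was not called. Tsc1 (ENSMUSG00000026812, chromosome 2, 28641228 to 28691167, plus strand), the hamartin gene, had a lowest, median and highest of 114, 125 and 129 CPM in WT, 112, 120 and 124 in HET and 110, 116 and 123 in HOM. WT 8, at 114, lay apart from the other WT libraries, and all 10 HOM libraries lay below the WT mean. Tsc1 fell in HOM by 0.09 on the log2 scale (SE 0.0251, edgeR adjusted p = 0.0266), and without WT 6 the change was -0.08 and was not called (adjusted p = 0.0678). Tsc2, the tuberin gene, had medians of 113, 117 and 117 CPM in WT, HET and HOM, with 4 HOM libraries above every WT library, and a log2 difference of 0.07 (SE 0.0293, interval 0.00811 to 0.128, adjusted p = 0.147). Its exons share 693 of 9620 bases with Pkd1 on the other strand, which itself had a log2 fold change of 0.02.

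Flcn and Tfeb act where the Rags meet lysosomal gene control, and neither was called. Flcn, the folliculin gene, had medians of 54.6, 54.8 and 55.2 CPM in WT, HET and HOM, with overlapping groups and a difference of 0.02 on the log2 scale in HOM (SE 0.0309, edgeR adjusted p = 0.753). Tfeb was scarce, with medians of 5.46, 5.82 and 5.80 CPM. Of the HOM libraries, 5 lay above every WT library for Tfeb, and its log2 fold change was 0.11 (SE 0.061, interval -0.0125 to 0.237, adjusted p = 0.257).

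**Figure D3:**
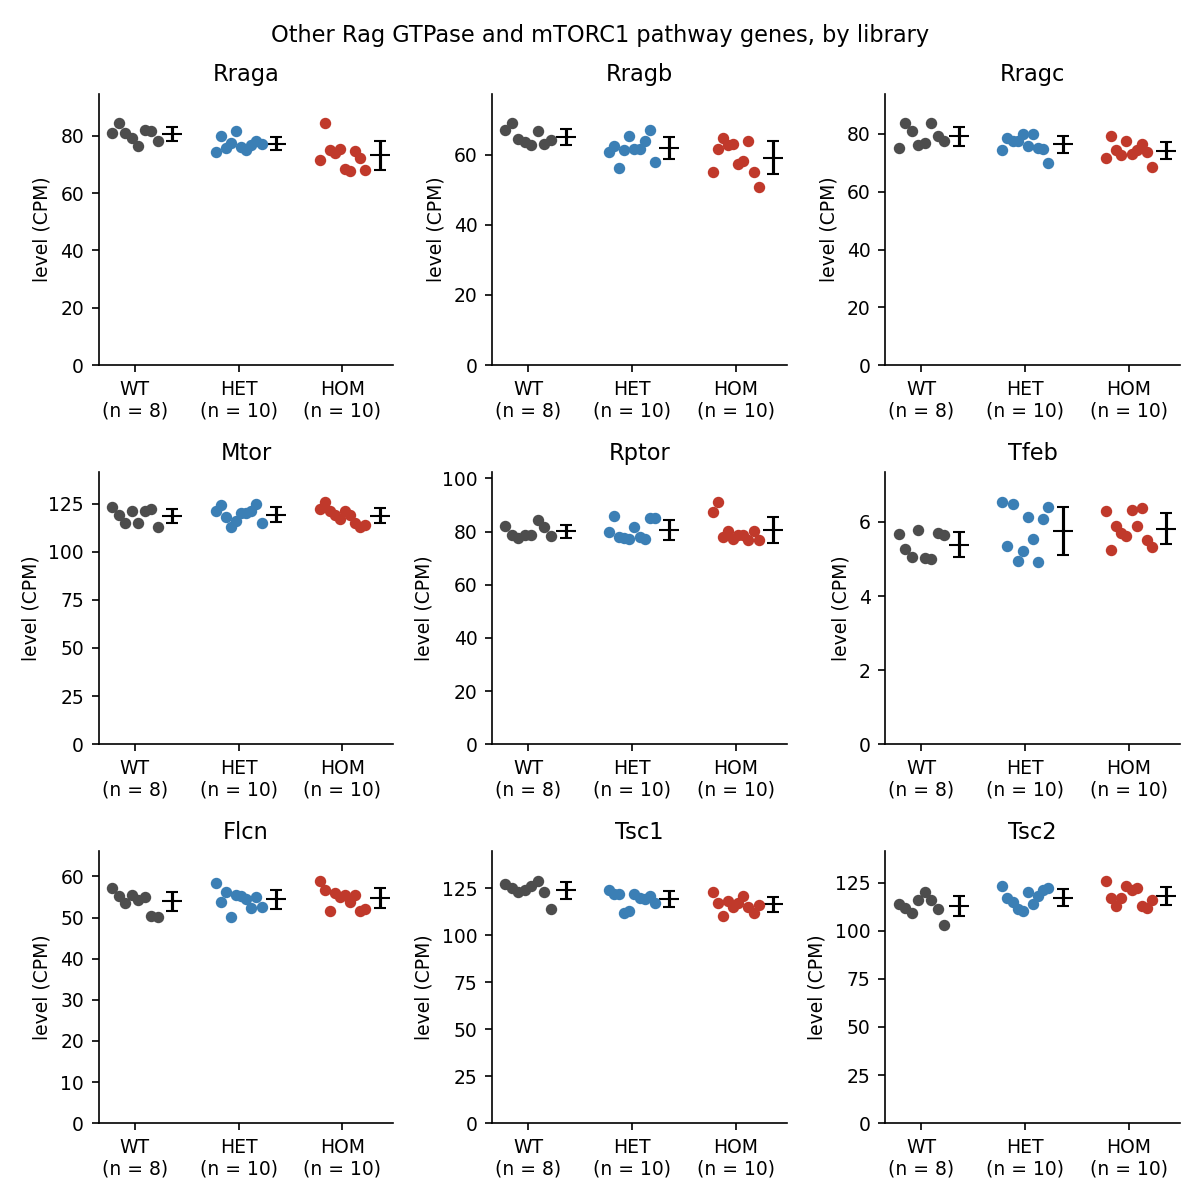
Level (vertical axes, CPM, each from 0) of the 9 other genes in each library (points) by genotype, with group mean and SD (cross and bar). For Rraga, 9 HOM libraries lie below all WT libraries and 1, at 84.6, lies above them, and Mtor, Rptor and Flcn overlap across the 3 groups.

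The wider pathway was read from 14 gene lists, also drawn up with earlier results known. Outside the 10 genes, 114 pathway genes were tested in HOM against WT, and 5 were called higher and 2 lower, 6.14%, beside 7.61% of all genes. Their median log2 fold change was -0.01. In HET against WT and in HOM against HET, 0 of them were called by edgeR.

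The machinery around the Rags was mostly not called. Of the 7 genes of Ragulator and its lysosomal partners, which tether the Rags, 0 passed, with a median of -0.01, and Lamtor1 (listed as 2400001E08Rik) differed by 0.08 on the log2 scale (SE 0.0415, edgeR adjusted p = 0.242). The 7 mTORC1 genes, Mtor and Rptor among them, gave 0 calls, and Deptor, an inhibitor subunit, had -0.13 (adjusted p = 0.202). The 4 subunits found only in mTORC2 also gave 0, with Prr5 at 0.13 (adjusted p = 0.356). Of the folliculin complex 0 of 3 passed, and the folliculin partner Fnip1 had -0.12 (SE 0.0393, adjusted p = 0.0619), with 8 of 10 HOM libraries below every WT library.

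Among the arms that report amino acids, GATOR1 with KICSTOR restrains the Rags and GATOR2 relieves that restraint. GATOR1 and KICSTOR had 0 of 7 genes called, with Kics2 (listed as BC048403) at -0.09 (edgeR adjusted p = 0.172). In GATOR2, 1 of 5 was called, where 7.61% of all genes were. That gene, Wdr24, rose from 20.3 ± 0.741 CPM in WT (SD, n = 8) to 22.7 ± 2.31 in HOM (n = 10). HOM 1 and HOM 2, the shallowest libraries, were the highest at 26.0 and 27.3 CPM, and the other 8 HOM libraries spanned 20.6 to 23.2 CPM. The log2 difference was 0.15 (SE 0.0465), with an edgeR adjusted p of 0.0412, and each of the 10 HOM libraries exceeded the WT mean. Without HOM 1 and HOM 2 the difference was 0.09 and was not called (adjusted p = 0.114). The call was lost without any 1 of WT 1, 2, 3, 4, 6 or 8 or HOM 1, 2, 6, 9 or 10, with changes of 0.12 to 0.16 and adjusted p from 0.0509 to 0.087. The 7 amino acid sensors gave 0 calls, with Samtor (listed as B630005N14Rik), the methionine route's sensor, at -0.12 (adjusted p = 0.0902), and the 10 amino acid transporters gave 0, with Slc36a4 at -0.07 (adjusted p = 0.139).

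Upstream growth factor and energy signalling had 1 call among 18 genes, the insulin receptor gene Insr, where 7.61% of all genes were called. Insr fell from 78.7 ± 2.6 CPM over 8 WT libraries (SD) to 73.0 ± 4.23 over 10 HOM libraries. The log2 difference was -0.11 (SE 0.0312), with an edgeR adjusted p of 0.0323. Of the HOM libraries, 8 lay below every WT library. The call was lost without WT 3, WT 5 or WT 6, with adjusted p from 0.0519 to 0.079 and changes of -0.11 to -0.10, and without HOM 1 and HOM 2 together (-0.08, adjusted p = 0.0615). In this list 14 of 18 genes had values below 0, with a median of -0.04, beside 0.01 over all genes, and the list was not tested as a set. Of 16 direct substrates and effectors of mTORC1, 0 were called, and the translation factor gene Eif4b had -0.07 (adjusted p = 0.0619).

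Of the genes that TFEB is known to drive, the longest of the lists and mainly lysosomal, 4 were called higher and 1 lower of 30 tested, with a median of 0.01. The 1 called lower was Ppargc1a, the gene of the coactivator PGC-1alpha, which is not a lysosomal protein. Over all genes 3.9% were called higher and 3.71% lower. Ppargc1a fell from 56.5 ± 2.86 CPM (n = 8) to 51.4 ± 2.92 (n = 10), a log2 difference of -0.14 (SE 0.0338, edgeR adjusted p = 0.0144), with 9 HOM libraries below every WT library. It was called in all 28 fits that left out 1 library.

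Ctsa, Hexa and Tpp1, called higher in that list, were less steady. For Ctsa, the cathepsin A gene, the log2 difference was 0.09 (edgeR adjusted p = 0.0452). It was called in 9 of the 28 fits that left out 1 library. Hexa, a subunit gene of beta-hexosaminidase, had 0.13 (adjusted p = 0.0467) and was called in 6 of the 28. Tpp1, a lysosomal peptidase gene named here after its values were seen, had 0.07 (adjusted p = 0.0487) and was called in 5. Left-out WT, HET and HOM libraries all ended these calls, with adjusted p up to 0.103 for Ctsa, 0.105 for Hexa and 0.114 for Tpp1. Exons of Ctsa overlap Neurl2 and Pltp on the other strand, and those of Hexa overlap Tmem202.

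**Figure D4:**
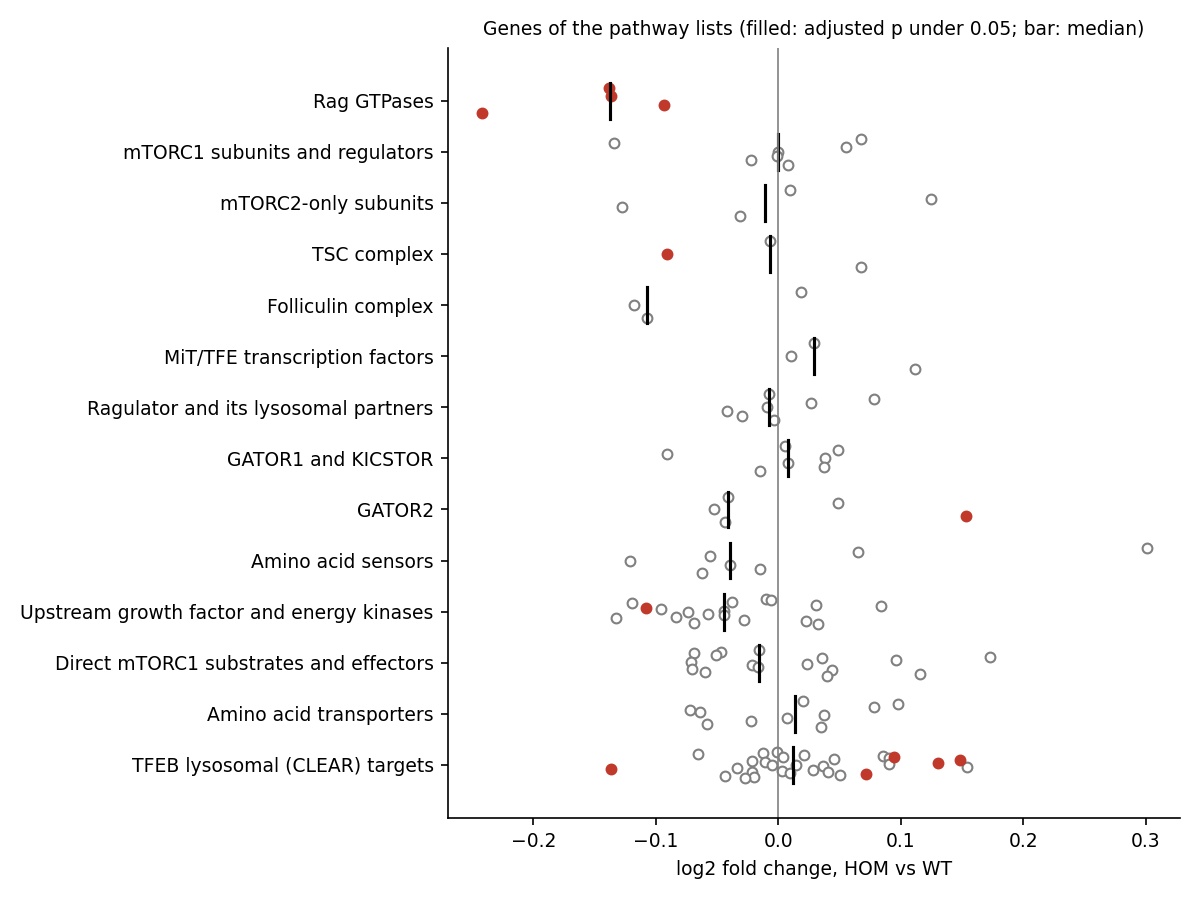
Log2 fold change of HOM against WT (horizontal axis) for each tested gene (points) of the 14 pathway lists (vertical axis), filled where the edgeR adjusted p was under 0.05, with the list median as a bar. The 4 Rag genes are filled and lie below 0, but Rragd chose the contrast and its point is a description with no test. The mTORC1 subunits have no filled point, and the TFEB target list has 4 filled points above 0 and 1 below.

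Markers of other cell types differed between HOM and WT beside these results, where 3.9% of all genes were called higher and 3.71% lower. Astrocyte markers had 3 of 7 called higher and summed to 2177 to 2527 CPM in WT and 2418 to 2860 in HOM. Microglia markers had 5 of 8 called higher, with sums of 417 to 491 and 465 to 587 CPM, and oligodendrocyte precursor markers 4 of 6, with 410 to 466 and 443 to 505 CPM. Endothelial and mural markers had 5 of 8 higher, with sums of 285 to 316 and 308 to 356 CPM, and meningeal markers 2 of 7, with 33.6 to 53.2 and 41.1 to 109 CPM. Interneuron markers had 1 higher and 2 lower of 7, with 1096 to 1222 and 988 to 1236 CPM. Mature oligodendrocyte, pan-neuronal, excitatory, striatal, choroid plexus and red cell lists had 0 called, and no list had a marker at 0 in all libraries. But 5 of 7 choroid plexus markers averaged under 1 CPM. In HET against WT 0 markers were called by edgeR, yet all 7 striatal markers lay below 0, with a median of -0.604. Their sums were 136 to 515 CPM in WT and 148 to 261 in HET. All 7 meningeal markers lay above 0 there, with a median of 0.352.

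With scores from marker lists in the model the values of all 4 Rag genes stayed below WT. Rraga, Rragb and Rragc were no longer called, and Rragd was not tested here. Scores of astrocyte, microglia, oligodendrocyte and interneuron markers were added as covariates, an alternative chosen after seeing the data. Rragd then had a log2 fold change of -0.34 (SE 0.0473) in HOM against WT and -0.23 (SE 0.0346) in HET. Rraga then had -0.13 (SE 0.0439, edgeR adjusted p = 0.22), Rragb -0.10 (SE 0.0502, 0.408), Rragc -0.03 (SE 0.0383, 0.791) and Tsc1 -0.04 (SE 0.037, 0.696), none past the threshold. Without covariates Rraga had -0.14 (SE 0.0321) and Rragb -0.14 (SE 0.0397). The SEs were larger with the scores, so a lost call is not by itself a smaller difference. With meningeal, choroid plexus, striatal and endothelial scores, Rragd had -0.29 (SE 0.0494) in HOM against WT. Rraga had -0.08 there (SE 0.0466, edgeR adjusted p = 0.454), Rragb -0.03 (SE 0.0505, 0.869), Rragc -0.06 (SE 0.0445, 0.592) and Tsc1 -0.06 (SE 0.0331, 0.423). Wdr24, Insr, Ppargc1a, Ctsa, Hexa and Tpp1 were not called under either set, though not all had smaller values there. With the brain cell scores Wdr24 had 0.19 (adjusted p = 0.245) and Insr -0.13 (0.259), both larger in size than without covariates, while Ppargc1a had -0.11 (0.336), Ctsa 0.05 (0.679), Hexa 0.05 (0.769) and Tpp1 0.04 (0.705). With the other set Wdr24 had 0.165 (adjusted p = 0.336) and Insr -0.15 (0.158). Over all genes, 40 and 42 were called with the 2 sets, beside 1226 without them. What part the marker differences have in the levels of the other Rag genes was not tested further.

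**Figure D5:**
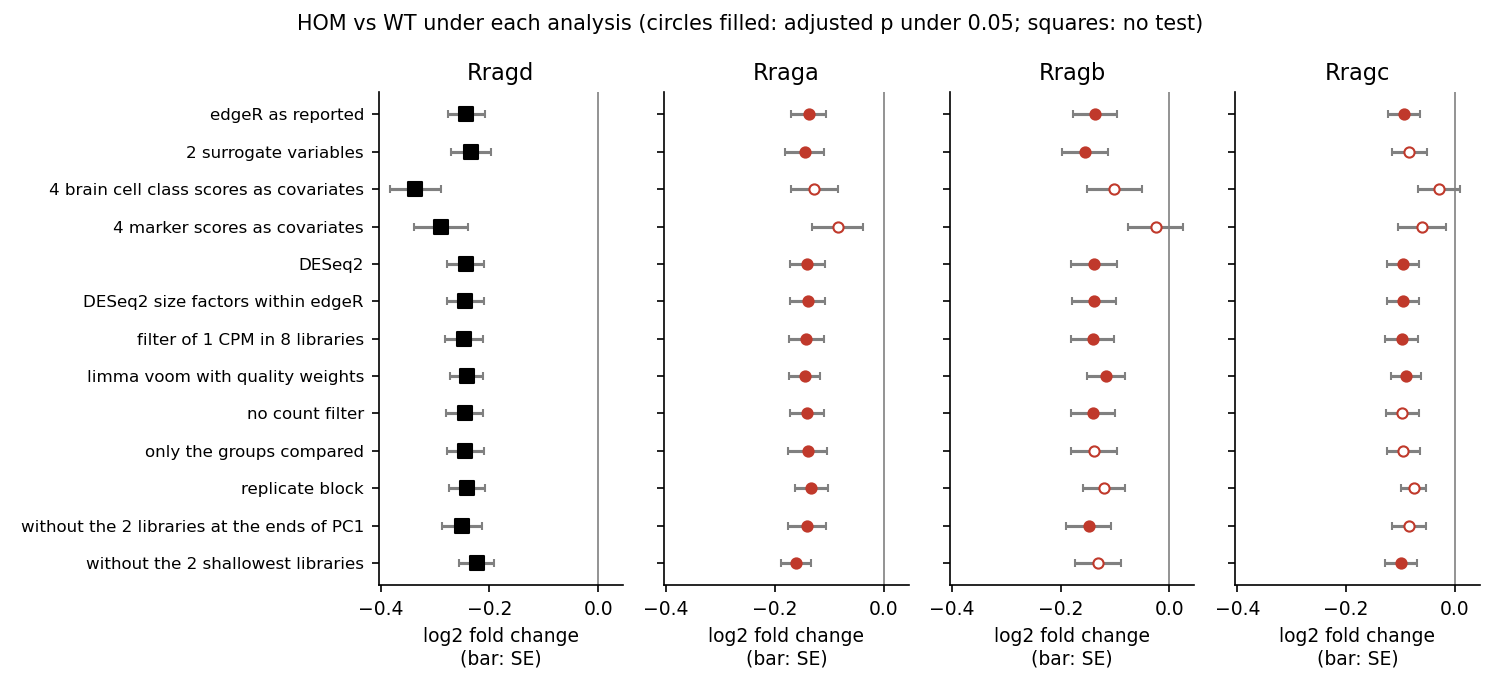
Log2 fold change of HOM against WT with its SE (horizontal axes) for the 4 Rag genes under the reported fit and 12 alternatives (vertical axis). Circles are filled where the adjusted p was under 0.05, and Rragd, as squares, is a description with no test. Rragd lies between -0.34 and -0.22 throughout, while Rragb and Rragc move to -0.03 with one or the other set of marker scores.

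Genes were ranked by how closely they followed Rragd from library to library. Over the 28 libraries, among 13922 genes with a mean of at least 1 CPM, the highest Pearson r of log2 CPM with Rragd was 0.82 for C030039L03Rik, followed by Zrsr2, a splicing factor gene, at 0.80, Ccdc148 at 0.79, Topors, a ubiquitin and SUMO ligase gene, at 0.77 and the cadherin gene Cdh8 at 0.77. The lowest were Athl1 at -0.81, Synrg at -0.81 and the interferon regulatory factor gene Irf3 at -0.78. These points share the genotype difference, and the values are a description. Counted from the highest r, Rragc had 0.60 (rank 270 of 13922), Rraga 0.60 (rank 275), Rragb 0.57 (rank 382) and Tsc2 -0.59 (rank 13686). The genes at either end were picked as extremes of all 13922, so they are no like comparison for the Rag genes. Mean Zrsr2 was 51.9 ± 0.824 CPM over 8 WT, 49.7 ± 1.31 over 10 HET and 46.8 ± 1.08 over 10 HOM libraries (SD). Its WT and HOM libraries did not overlap, where 0.223% of all genes had every HOM library below every WT library. Zrsr2 was picked for its likeness to Rragd in these libraries, so nothing is read from that.

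Once each genotype's mean was taken out, the likeness to the Rag partners was weak. The highest values were then 0.75 for Slc30a10, 0.75 for Rap2b, 0.74 for Zfp930, 0.70 for Arl4a and 0.69 for Wls. Against the 9 other genes, none of 9 relations passed after adjustment, with the lowest adjusted p at 0.155 for Pearson's r and 0.237 for Spearman's rho (100000 permutations, two-sided). Rragc gave r = 0.329 (permutation p = 0.1, rho = 0.28, p = 0.16), Rragb r = 0.258 (p = 0.26, rho = 0.265, p = 0.2) and Rraga r = 0.198 (p = 0.4, rho = 0.226, p = 0.27). The largest in size was Tsc2 at r = -0.441 (permutation p = 0.021, rho = -0.351, p = 0.079), which was -0.292 without the 2 libraries farthest from the median. Left out in the same way, r was 0.248 for Rragc, 0.0643 for Rragb, 0.152 for Rraga and -0.483 for Tfeb, which had r = -0.378 with all libraries (permutation p = 0.056, rho = -0.362, p = 0.075).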

How the data were processed

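PolyA RNA of frontal cortex was sequenced in 28 libraries with a stranded Illumina kit, per the labels' protocols. Reads were trimmed with Trim Galore 0.4.3 and aligned with HISAT2 2.0.5 to GRCm38, per the submitters' processing notes. For the counter, strand setting, annotation and read length, nothing is stated in the sources used here. Per gene and library, the authors deposited raw counts without normalising them. Rows of 1 identifier were summed (25965 rows, 25900 genes), and each column matched 1 title.

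Genes were filtered with filterByExpr (16110 left), scaled by TMM and tested with edgeR 4.0.16 (R 4.3.3; glmQLFit, robust, two-sided) in 1 fit of all libraries without covariates. Benjamini-Hochberg adjustment ran over all genes, with a threshold of 0.05. The biological coefficient of variation was 8.46%. The fit was tested on simulated data. Correlations used log2 CPM with a prior count of 2. RPKM used exon bases in GENCODE vM21. All 378 pairs of libraries differed by more than sampling noise (chi-square at least 6.12 times its degrees of freedom).

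The members and lists were chosen with earlier results of these data known. Named were the 10 genes, up to 4 called genes per list or else the non-member with the smallest p, and the genes most and least like Rragd; 1 gene is not reported here. Alternatives were DESeq2 1.42.0, its size factors, other count filters, limma 3.58.1 voom, 2 surrogate variables (sva 3.50.0), marker scores, the groups compared alone, a replicate block, and libraries left out.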

Additional observations from a re-analysis of the deposited data

Results flagged for a closer look

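In groups of 8 or 10 libraries, 13 of 120 gene and group pairs had 1 library whose gap to the next exceeded Dixon's 95% critical value, where chance gives about 1 in 20. The genes are not independent and some were picked for likeness to Rragd, so that count is a description. Among the 10 genes the flagged pairs were Rraga in HOM 2, at 84.6 CPM beside 67.7 to 75.4 in the other HOM libraries, and Tsc1 in WT 8, at 114 CPM beside 123 to 129. Tardbp stood at 358 CPM in HET 10, beside 313 to 336.

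HOM 1, the second shallowest library, was the one set apart for 5 genes: Lamtor1 (2400001E08Rik) at 64.4 CPM, Insr at 63.2, Eif4b at 191, Topors at 20.0 and Rap2b at 42.5. The other HOM libraries spanned 47.9 to 56.5 CPM for Lamtor1, 71.3 to 79.7 for Insr and 175 to 182 for Eif4b. HOM 1 also had the lowest Rragd level of all libraries, 126 CPM, without passing the critical value there. Topors and Rap2b were picked for following Rragd from library to library, so their low values in HOM 1 are not independent of it. Deptor stood apart in WT 4 at 36.9 CPM, beside 45.8 to 52.9, and in HOM 10 at 32.9, beside 42.2 to 48.9. Ppargc1a was at 58.4 CPM in HOM 9, Hexa at 60.2 in HET 10 and Cdh8 at 32.6 in HET 5.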

How the results depend on the processing

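The values of Rragd against WT, which chose the gene, are a description here too. In HET they ran over 12 alternatives from -0.233 with cell class scores to -0.169 with 2 surrogate variables, and from -0.194 to -0.168 without 1 library. Between lay -0.1809 with DESeq2, -0.1891 with limma voom, -0.1796 with only the groups compared, -0.1797 without the 2 shallowest libraries and -0.1785 with the replicate block. The sign of near-zero values turned for Mtor with surrogate variables (0.0122), cell class scores (0.0446) and tissue marker scores (0.0286), for Rptor with voom (-0.0073) and for Rptor and Flcn without the shallowest libraries (-0.0313 and -0.0015); without 1 library Mtor ran from -0.0121 to 0.0047 and Rptor from -0.0134 to 0.0188. The cause was not tested.

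Over all genes, HOM against WT gave 40 calls with cell class scores, 42 with tissue marker scores, 509 without WT 6 and HOM 3, and 595 (without WT 6) to 1345 without 1 library, with 725 without WT 2. HET against WT gave 5 with surrogate variables, 2 with cell class scores, 12 with DESeq2, 1 with the CPM filter, 14 with voom, 4 with the groups compared alone, 2 without the shallowest libraries and 0 to 3 without 1 library. HOM against HET, at 6, gave 3 with each of surrogate variables and both score sets, 50 with DESeq2, 42 with voom and 3 to 15 without 1 library. The departure test gave 1 with surrogate variables. The slope, at 1254, gave 41 and 46 with the score sets, 608 without WT 6 and HOM 3 and 681 to 1401 without 1 library.

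Replicate numbers do not pair these libraries: over 26 pairs r ran from -0.164 to 0.183 (5 over 0.1), and 2 of 28 libraries correlated best with their own number. With the replicate block, 737 genes were called in HOM against WT and 821 for the slope, Mtor stood at 0.0067, and Rragb (-0.12, adjusted p = 0.0771), Rragc (-0.08, 0.066), Tsc1 (-0.09, 0.0525), Wdr24, Ctsa, Hexa and Tpp1 were not called. Surrogate variables ended the calls of Rragc and Tsc1, at -0.08 and -0.06 (adjusted p = 0.0949 and 0.0866), as did leaving out WT 6 and HOM 3 (adjusted p = 0.125 and 0.0907). Of 12 alternatives, Ppargc1a kept its call in 9, Insr in 6, Wdr24 and Hexa in 5 each, Ctsa in 4 and Tpp1 in 3. Depth gave at least 4093 Rragd reads per library, and Tfeb, at 4.91 to 6.55 CPM, had the largest SE of the 10 genes in HOM against WT (0.061).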
